A study of Mus musculus with 2 samples.

Results

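Chromatin modifiers and remodellers are the enzymes and complex subunits that write, read and erase marks on histones or move nucleosomes along DNA. The members were all genes whose single symbol in the array's annotation begins with Kdm, Kmt, Setd, Hdac, Chd, Brd, Kat or Arid followed by a digit, or with Smarc. This gave 69 of the 10843 genes named on the platform, carried by 147 probes. They comprised 11 Kdm, 6 Kmt, 8 Setd, 7 Hdac, 11 Smarc, 8 Chd, 6 Brd, 7 Kat and 5 Arid genes. The rule reads symbols and no measured value, but these families were taken up with earlier results of the data known.

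The study measured how mechanical shear affects mouse flexor tendon cells, on 2 spotted 2-colour microarrays with 1 array per time point. On the 6 h array the Cy5 channel held RNA of pooled sheared cells and the Cy3 channel RNA of pooled control cells of that time. On the 12 h array Cy5 held cells sheared at 50 rpm for 12 h, and Cy3 held control tenocytes, the fibroblast-like cells of tendon, of 12 h. The labels give no shear speed for 6 h, no strain or age of the mice, and no number of animals. Since no array was repeated and the dyes were not swapped, no difference could be tested, and shear, dye and array cannot be told apart.

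Histone acetylation, placed by Kat enzymes and removed by Hdac enzymes, generally accompanies open and active genes. Methylation of histone lysines, placed by Kmt and Setd enzymes and removed by Kdm enzymes, marks active or silent genes depending on the residue. Some Smarc, Arid and Brd proteins form the SWI/SNF (BAF) complexes, which slide or evict nucleosomes using ATP. Chd proteins are a separate family of such motors. In fibroblasts these factors are known to take part in the switch between resting and matrix-producing states.

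All values below are log2 ratios, likely of sheared over control cells, after the median of each array was set to 0. Below 0 therefore means lower in sheared cells relative to the median spot of that array. That direction follows from the labelled dyes if red was divided by green, as is usual in the Stanford database that the labels link to. The base of 2 was inferred from the range of the values. The medians subtracted were -0.323 at 6 h (39776 spots measured) and -0.479 at 12 h (41717 spots measured). A gene's value is the median of its probes. The only error is the SD between a gene's probes, which pooled over members was 0.694 at 6 h (47 members with 2 or more probes) and 0.845 at 12 h (49 members). Over all genes it was 0.738 and 0.855. Of 13 tenocyte markers 8 were measured, Scx, Tnmd and Mkx not being among them, and a ratio does not show a level, so the cell type could not be checked here. The 8 had medians of 0.069 and -0.072, and 3 fibroblast markers had medians of -0.32 and 0.45. Markers of leukocytes, endothelium, muscle, skeleton and epithelium, 2 to 5 genes per type, had medians from -1.88 to 0.39 at 6 h and from -0.73 to 0.46 at 12 h. Genes of 1 type could differ, as with the leukocyte markers Cd68 at 1.70 and Csf1r at -2.31 at 12 h. The part of these cell types in the members' values was not tested.

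Most chromatin genes read lower in sheared than in control cells, more so at 12 h. At 6 h the 67 measured members had a median of -0.61, against -0.11 for all 10346 genes measured. At 12 h the 69 members had a median of -0.91, against -0.14 for 10731 genes. The middle of the members' range, between the quartiles, ran from -1.06 to 0.044 at 6 h and from -1.52 to -0.028 at 12 h. The Kmt, Arid and Kdm families had the 3 lowest medians on both arrays. Which families these were, and their order, changed with the processing. With print blocks centred, for example, Chd (-0.80) and Setd (-0.72) lay below Kdm (-0.71) at 6 h. The Smarc and Brd families lay nearer the median of all genes, and the Hdac family stood above 0 at 6 h. The members outside the Hdac family had medians of -0.66 and -0.95.

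At 6 h 18 of 67 members (26.9%) were at least 2-fold lower, while 18.8% of all genes were. Brd2 was the only member at least 2-fold higher, or 1.49% of members, against 6.20% of all genes. At 12 h 31 of 69 members (44.9%) were at least 2-fold lower, against 20.5% of all genes. The 3 members at least 2-fold higher, Brd2, Arid4a and Hdac3, made up 4.35%, against 14.5% of all genes. On both arrays 16 of 67 members (23.9%) were at least 2-fold lower, against 9.80% of all genes, and 1 (1.49%) was at least 2-fold higher, against 4.34%. The excess of lower values was thus present at both times and wider at 12 h. Without centring, 44.8% of members and 28.0% of all genes were at least 2-fold lower at 6 h, and 62.3% and 35.0% at 12 h. Of all genes past 2-fold, the share on the higher side was 24.7% at 6 h and 41.4% at 12 h, and 7.82% and 16.5% without centring.

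**Figure D1:**
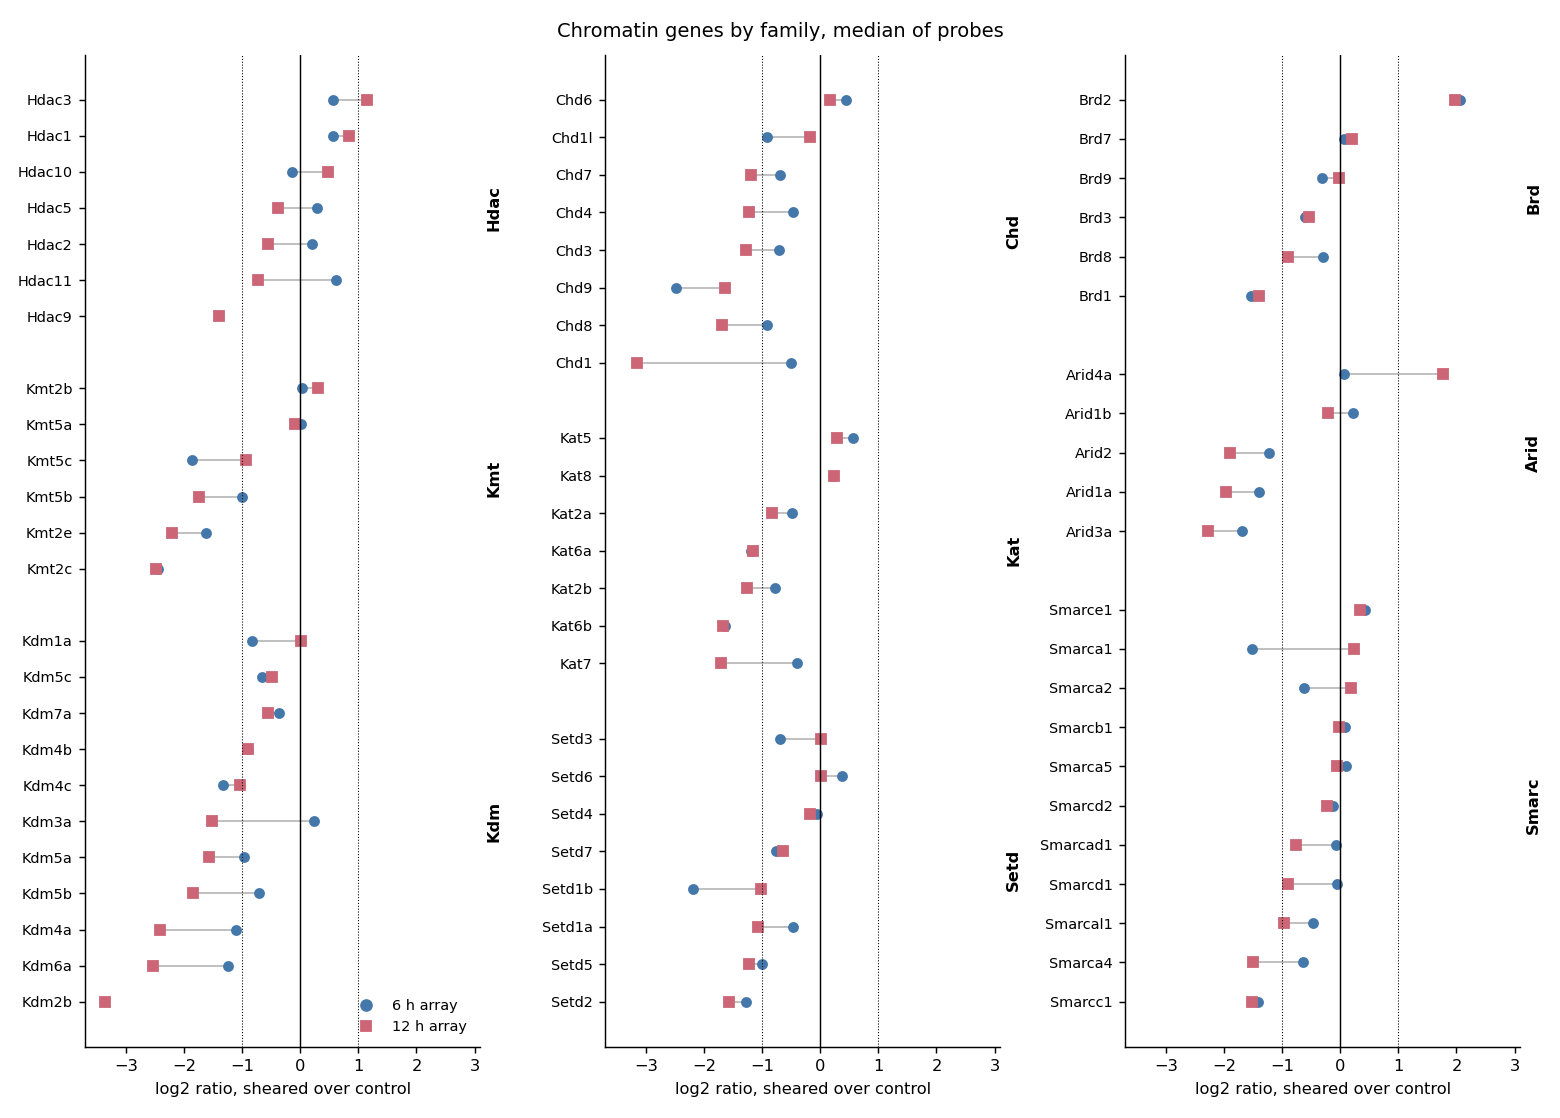
Each row is a chromatin gene, grouped by symbol family and ordered by its 12 h value; the horizontal axis gives the log2 ratio, likely of sheared over control, with circles for the 6 h array, squares for the 12 h array and dotted lines at 2-fold. Most symbols lie left of 0, the lowest being Kdm2b at -3.37 (12 h), and Brd2 lies near 2 on both arrays.

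**Figure D2:**
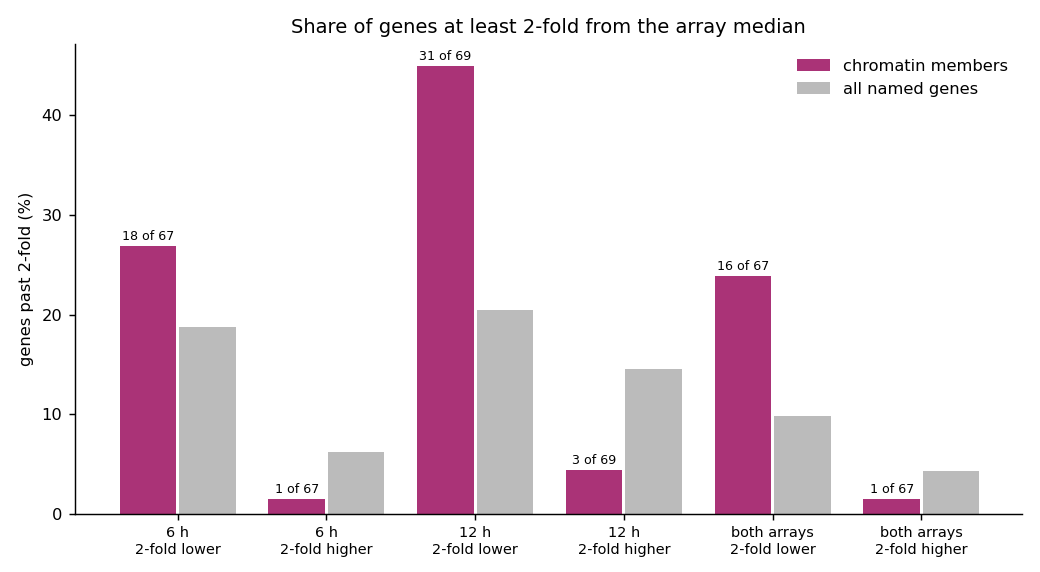
Bars give the percentage of genes at least 2-fold from the array median, for the chromatin members (dark, with counts above) and for all named genes (grey), by array and direction. The members' bars are the taller ones for lower values, 44.9% against 20.5% at 12 h, and the shorter ones for higher values.

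Single probes gave the same picture as gene medians. Of 142 member probes with a value at 6 h, 105 (73.9%) lay below 0, against 48.7% of all named probes. At 12 h 112 of 146 (76.7%) did, against 50.0%. Among members with 2 or more probes, all probes lay below 0 for 28 of 47 genes at 6 h and for 31 of 49 at 12 h, and all lay above 0 for 4 and 6. The same counts over all genes were not made. Of members with 2 or more probes on both arrays, 74.5% at 6 h and 78.7% at 12 h had a median below 0. Of all such genes 47.1% and 47.6% did. The 47 members with 2 or more probes on both arrays had medians of -0.66 and -1.02, whereas all 5345 such genes had medians of 0.059 and 0.057. The ribosomal protein genes, which are short and abundant transcripts, stood at the other end of both arrays, with medians of 1.17 and 2.18 over 63 genes. Length and abundance of the transcripts were not examined, and their part in the members' values was not tested.

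Promoter windows are shown for 4 members that mark the range of the data. Kmt2c, Kdm6a and Arid1a read low on both arrays, with 3 or 4 probes each, and Brd2 was the member that read high on both. RefSeq windows of GRCm38.p6, from 250 bases before to 50 after the annotated start, were found for 52 of the 69 members, 74 windows in all. Where a gene had several windows, the one with the most CpG dinucleotides is printed, 5′ to 3′ on the gene's strand. Capitals mark a GC box (GGGCGG on either strand, overlaps included) or a CCAAT box on either strand.
Kmt2c, chr5:25498734-25499033, minus strand: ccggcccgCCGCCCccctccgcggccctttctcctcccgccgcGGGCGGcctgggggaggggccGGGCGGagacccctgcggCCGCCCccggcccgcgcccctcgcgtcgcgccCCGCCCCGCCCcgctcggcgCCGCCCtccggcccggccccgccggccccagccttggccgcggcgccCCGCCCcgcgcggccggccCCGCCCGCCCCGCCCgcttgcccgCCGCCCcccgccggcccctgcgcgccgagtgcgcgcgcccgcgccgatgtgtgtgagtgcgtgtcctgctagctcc
Kdm6a, chrX:18162325-18162624, plus strand: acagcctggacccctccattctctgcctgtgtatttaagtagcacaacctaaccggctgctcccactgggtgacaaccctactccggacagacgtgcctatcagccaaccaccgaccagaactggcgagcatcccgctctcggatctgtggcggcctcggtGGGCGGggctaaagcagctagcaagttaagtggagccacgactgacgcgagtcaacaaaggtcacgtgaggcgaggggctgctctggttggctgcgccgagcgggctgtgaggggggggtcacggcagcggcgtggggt
Arid1a, chr4:133753936-133754235, minus strand: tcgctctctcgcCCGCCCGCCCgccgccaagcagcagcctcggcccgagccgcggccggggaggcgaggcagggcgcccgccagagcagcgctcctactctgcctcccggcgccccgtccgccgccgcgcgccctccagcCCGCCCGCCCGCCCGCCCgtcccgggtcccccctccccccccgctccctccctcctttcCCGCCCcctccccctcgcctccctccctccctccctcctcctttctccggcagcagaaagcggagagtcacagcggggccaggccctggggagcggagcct
Brd2, chr17:34122558-34122857, minus strand: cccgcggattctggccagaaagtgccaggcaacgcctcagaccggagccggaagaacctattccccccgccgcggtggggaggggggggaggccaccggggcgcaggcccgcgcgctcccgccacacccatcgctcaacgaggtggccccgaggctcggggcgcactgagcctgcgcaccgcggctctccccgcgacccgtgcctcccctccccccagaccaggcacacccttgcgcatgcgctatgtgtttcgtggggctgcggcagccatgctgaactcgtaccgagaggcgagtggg

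The Kmt2c window held 12 GC boxes and 56 CpG, the Arid1a window 7 and 36, the Kdm6a window 1 and 21, and the Brd2 window none and 32. The other Brd2 windows held 1 GC box each. A GC box was present in 51 of 74 member windows (68.9%) and in 57.6% of the 11117 windows of genes named on the platform. Windows of the same gene can overlap almost wholly, as for Kat6b, Brd9, Kdm2b and Setd3, and each was counted, so the shares are not over separate promoters. The TATAA motif was in 4 (5.41%), against 16.2%, and CCAAT in 27 (36.5%), against 37.9%, both strands searched. The AP-1 motif TGANTCA was in 9 windows (12.2%), against 5.93%, the heat shock core GAANNTTC in 5 (6.76%), against 5.73%, and the hypoxia core ACGTG in 10 (13.5%), against 24.6%. The cAMP motif TGACGTCA was in none, against 2.85%. The median window of the members held 24.5 CpG, against 19, and 63.3% G or C, against 59.7%. These matches describe letters in the windows and not binding.

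Among the histone methyltransferases, the Kmt genes split into low members and members near 0. Kmt2c, which methylates lysine 4 of histone H3 (H3K4) at enhancers, stood at -2.45 at 6 h (probe SD 1.20, 4 probes) and -2.48 at 12 h (probe SD 0.70), or 5.45-fold and 5.57-fold lower. Its probes read -0.12, -2.59, -2.31 and -2.59 at 6 h, and -1.37, -3.04, -2.42 and -2.54 at 12 h, so that the first stood apart on both arrays. Kmt2e, a relative of the same group, stood at -1.63 (probe SD 0.36, 4 probes) and -2.20 (probe SD 1.18). Kmt5c and Kmt5b, which add further methyl groups to lysine 20 of histone H4, stood at -1.86 (probe SD 1.58, 2 probes) and -0.9995 (probe SD 0.51, 4 probes) at 6 h. At 12 h they stood at -0.93 and -1.74 (probe SD 0.62 and 0.69), so their order was reversed. In contrast, Kmt5a, which adds the first methyl group to that residue, stood at 0.0055 and -0.088 (2 probes), and the H3K4 enzyme Kmt2b at 0.025 and 0.30 on 1 probe. The family medians were -1.31 and -1.34.

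The Setd genes were lower by a smaller amount, with medians of -0.73 and -0.83. Setd2, the enzyme that trimethylates lysine 36 of histone H3 along transcribed genes, stood at -1.27 at 6 h (probe SD 0.095, 2 probes) and -1.57 at 12 h (probe SD 0.70). Setd5 stood at -1.01 (probe SD 0.70, 2 probes) and -1.23 (probe SD 0.88), just past 2-fold at 6 h. The H3K4 methyltransferase Setd1b stood at -2.20 (probe SD 1.79, 2 probes) and -1.02 (probe SD 0.76), and its paralog Setd1a at -0.47 (probe SD 0.45) and -1.08 (probe SD 0.13). The probes of Setd1b read -0.94 and -3.46 at 6 h, a gap wider than its distance from 0. Setd3, which methylates actin, stood at -0.69 (probe SD 0.77, 3 probes) and 0.020, and Setd6 at 0.37 (probe SD 1.08, 2 probes) and 0.020 (probe SD 1.58). Setd7 stood at -0.77 and -0.63 with probes on both sides of 0, and Setd4 at -0.055 and -0.18 on 1 probe.

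The lysine acetyltransferases formed a lower and a higher set. The paralogs Kat6a and Kat6b stood at -1.20 (probe SD 0.97, 3 probes) and -1.63 (1 probe) at 6 h, and at -1.15 (probe SD 1.67, 4 probes) and -1.67 at 12 h. The mean of the Kat6a probes at 12 h was -1.75. Kat7, which acetylates histone H3 and H4 near replication origins, stood at -0.41 and -1.71 on 1 probe, the lowest Kat value at 12 h. The coactivator enzymes Kat2a and Kat2b stood at -0.48 and -0.79 at 6 h and at -0.84 and -1.27 at 12 h (2 probes each), with a probe SD of 0.087 for Kat2b at 12 h. Kat5, the catalytic subunit of the Tip60 complex, stood at 0.56 (probe SD 0.32, 2 probes) and 0.29 (probe SD 0.38), the latter turning to -0.19 without centring. Kat8, which acetylates lysine 16 of histone H4, stood at 0.22 (probe SD 0.21, 4 probes) and 0.23 (probe SD 0.039), and its 4 probes at 12 h ran from 0.19 to 0.28; without centring its median turned negative on both arrays. Family medians were -0.48 and -1.15.

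All measured Kdm members but Kdm3a read below 0 at 6 h, and all but Kdm1a did so at 12 h. The medians were -0.87 over 10 genes and -1.51 over 11. The share of all genes below 0 was 55.3% at 6 h and 55.6% at 12 h. Kdm6b (0.48 at 6 h and 1.27 at 12 h) and Kdm2a (0.053 and -1.20), on probes shared with other transcripts, are not among these members. Kdm6a, which removes methyl groups from lysine 27 of histone H3, had probes at -1.11, -1.25 and -1.27 at 6 h and at -2.53, -2.42 and -2.69 at 12 h. The ranges of the 2 arrays did not overlap, and the gene stood 2.37-fold lower at 6 h (probe SD 0.086) and 5.77-fold lower at 12 h (probe SD 0.14). The H3K4 demethylases Kdm5a and Kdm5b read likewise, at -0.96 (probe SD 0.25, 3 probes) and -0.71 (probe SD 0.30, 2 probes) at 6 h and at -1.57 (probe SD 0.25) and -1.86 (probe SD 0.26) at 12 h. Their relative Kdm5c stood at -0.66 and -0.49 (probe SD 0.24, 2 probes) and so lay within 2-fold.

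The Kdm4 genes, whose products demethylate lysines 9 and 36 of histone H3, were low as well. Kdm4a stood at -1.11 and -2.41 on 1 probe, Kdm4b at -0.91 and -0.90 on 1 probe, and Kdm4c at -1.33 (probe SD 0.24, 2 probes) and -1.03 (probe SD 0.064). Kdm3a, an H3K9 demethylase known as a hypoxia target, read on different sides of 0: its 3 probes read 0.36, -0.34 and 0.23 at 6 h and -1.51, -0.69 and -1.97 at 12 h. The median was 0.23 (probe SD 0.38) and then -1.51 (probe SD 0.65), a difference of -1.74, and without centring the 6 h value turned negative. Kdm2b, which binds unmethylated CpG islands, had no value at 6 h and stood at -3.37 at 12 h on 1 probe, the lowest member value. With a second probe that is also assigned to Rnf34 it stood at -2.42, above Chd1. Kdm1a, the flavin-dependent H3K4 demethylase, stood at -0.83 (probe SD 0.74, 2 probes) and 0.011 (probe SD 0.48), the latter turning to -0.47 without centring. Kdm7a had the most probes of the family, 5, which scattered from -1.77 to 0.73 at 6 h and from -1.34 to 1.37 at 12 h around medians of -0.37 and -0.56.

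The histone deacetylases stood apart from the other families at 6 h in sign. Of 6 measured Hdac genes 5 lay above 0, with a median of 0.42 (3 of them above 0 without centring), and none was past 2-fold in either direction. Below 0 lay 16.7% of these few genes, against 55.3% of all genes. Of all genes 18.8% were at least 2-fold lower and 6.20% at least 2-fold higher. At 12 h the median over 7 genes was -0.38, but it was 0.043 over the 6 genes on both arrays, -0.017 with print blocks centred and -0.86 without centring, so the direction at 12 h is not settled. Hdac3, the enzyme of the NCoR and SMRT corepressors, had probes at 0.52 and 0.60 at 6 h and at 1.502 and 0.81 at 12 h, with medians of 0.56 and 1.15. Without centring the 12 h value was 0.67 and no longer 2-fold. Hdac1 stood at 0.56 and 0.84 on 1 probe. Hdac2, its close paralog, stood at 0.20 on 1 probe at 6 h, while its 2 probes at 12 h read -1.94 and 0.83.

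Hdac11, the single class IV deacetylase, was the only member at least 1.5-fold from 0 on opposite sides of the 2 arrays. This held for 1.49% of members and 1.32% of all genes, a share near the background. Its probes read 0.66 and 0.56 at 6 h and -0.88 and -0.60 at 12 h, with medians of 0.61 (probe SD 0.073) and -0.74 (probe SD 0.20). The class II genes were mixed: Hdac5 stood at 0.29 and -0.38 on 1 probe, Hdac10 at -0.14 (probe SD 0.83, 2 probes) and 0.47 (probe SD 0.19), and Hdac9, not measured at 6 h, at -1.39 on 1 probe.

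**Figure D3:**
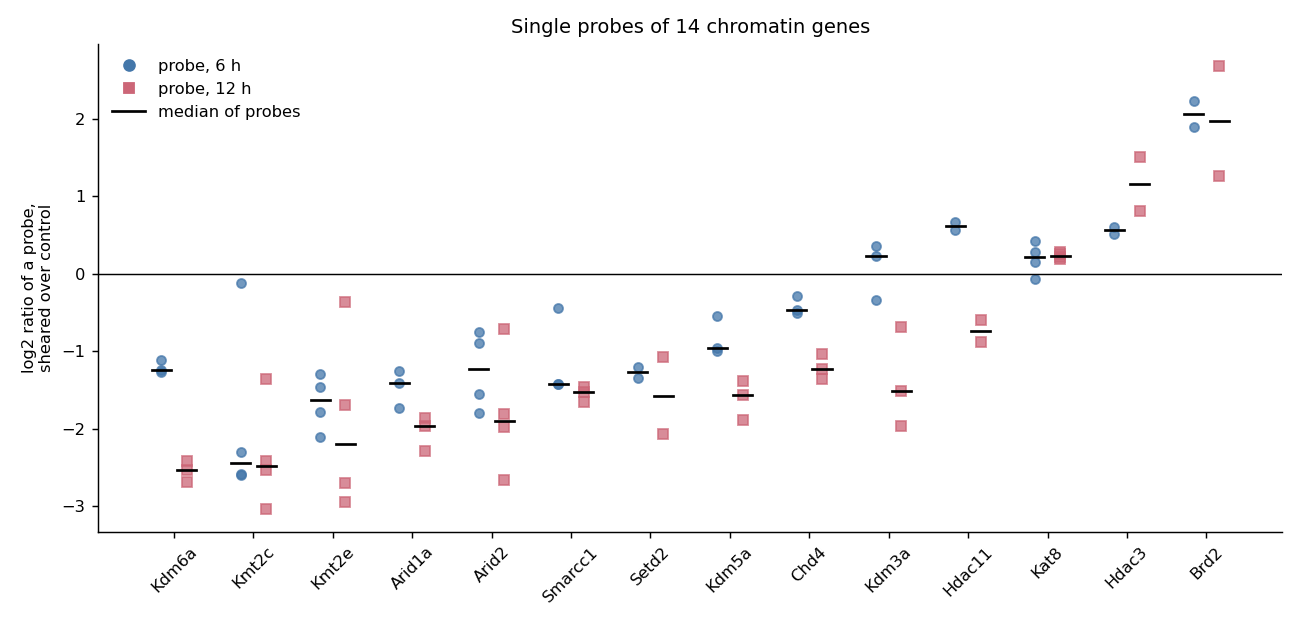
Each point is a probe, with the log2 ratio, likely of sheared over control, on the vertical axis; circles are the 6 h array, squares the 12 h array, and bars the median of a gene's probes. The probes of Kdm6a, Kdm5a, Chd4, Hdac11, Arid1a, Smarcc1, Kdm3a and Hdac3 do not overlap between arrays. The gap was narrow for Arid1a, between -1.73 at 6 h and -1.86 at 12 h, and for Smarcc1, between -1.43 and -1.46. How many of all genes show such a gap was not counted. The first Kmt2c probe lies apart from the other 3.

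Subunits of the SWI/SNF complexes differed among themselves. Smarcc1, a scaffold subunit of the complex, stood at -1.42 at 6 h (probe SD 0.57, 3 probes) and -1.52 at 12 h (probe SD 0.098). The ATPase Smarca4 stood at -0.65 (probe SD 0.072, 2 probes) and -1.4985 (probe SD 0.32), and the alternative ATPase Smarca2 at -0.62 and 0.19 on 1 probe. The small core subunits lay near 0: Smarcb1 stood at 0.080 (probe SD 0.50, 3 probes) and -0.022 (probe SD 1.11), and Smarce1 at 0.43 (probe SD 0.37, 3 probes) and 0.34 (probe SD 0.35). The accessory subunits Smarcd1 and Smarcd2 stood at -0.053 and -0.13 at 6 h and at -0.91 and -0.23 at 12 h. Over all 11 Smarc genes, which include ATPases outside this complex, the medians were -0.13 and -0.23, and 2 of 11 were at least 2-fold lower on each array, a share near the 18.8% and 20.5% of all genes. The 12 h median was -0.64 when probes were averaged and -0.83 when genes on a single probe were left out.

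Some Smarc symbols belong to ATPases of other remodellers. Smarca5, the ISWI motor, stood at 0.094 (probe SD 0.33, 3 probes) and -0.065 (probe SD 0.17). Smarca1, its paralog, stood at -1.52 and 0.24 on 1 probe. Smarcal1, which remodels stalled replication forks, stood at -0.47 (probe SD 0.67, 3 probes) and -0.97 (probe SD 0.29), and Smarcad1 at -0.073 and -0.76 (2 probes, probe SD 0.55 on both arrays).

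The Arid family, which holds large DNA-binding subunits of the SWI/SNF complexes and also other genes, had the lowest 12 h median. That rank was lost when probes with several symbols were kept, which added Arid5a and put the 12 h median at -1.05, above that of Kmt. Arid1a, the defining subunit of canonical BAF, had probes at -1.73, -1.41 and -1.26 at 6 h and at -1.86, -2.29 and -1.97 at 12 h. All 6 readings were past 2-fold lower, with medians of -1.41 (probe SD 0.24) and -1.97 (probe SD 0.22). Arid2, its counterpart in the PBAF form, stood at -1.23 (probe SD 0.50, 4 probes) and -1.89 (probe SD 0.81). Arid1b, the paralog that replaces Arid1a, stood at 0.22 on 1 probe and at -0.21 (probe SD 0.64, 2 probes). Outside these complexes, the transcription factor Arid3a stood at -1.70 and -2.28 on 1 probe, and Arid4a, a subunit of the Sin3 corepressor, at 0.062 and 1.77 on 1 probe. The family medians were -1.23 and -1.89 over 5 genes.

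The Chd helicases were moderately low at 6 h and lower at 12 h, with medians of -0.70 and -1.25 and 1 of 8 genes at least 2-fold lower at 6 h and 6 of 8 at 12 h. Of all genes 18.8% and 20.5% were, so that the 6 h share was no higher than theirs. Chd4, the motor of the NuRD corepressor, had probes at -0.47, -0.51 and -0.28 at 6 h and at -1.03, -1.36 and -1.23 at 12 h. Chd3, the other NuRD motor, stood at -0.70 and -1.28 on 1 probe. Chd7, mutated in CHARGE syndrome, stood at -0.69 (probe SD 0.11, 2 probes) and -1.18 (probe SD 0.082). Chd1, which binds trimethylated H3K4, stood at -0.51 (probe SD 0.079, 2 probes) and -3.16 (probe SD 1.83), its probes at 12 h being -4.45 and -1.87. Chd9 stood at -2.49 (probe SD 1.67, 3 probes) and -1.64 (SD 0.36 over 2 probes). Chd8 stood at -0.92 and -1.70 with a 12 h probe SD of 1.86. Chd6 stood at 0.44 and 0.17 and Chd1l at -0.91 and -0.18, each on 1 probe.

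The bromodomain genes held the highest member. Brd2, a BET protein that binds acetylated histones and recruits the transcription machinery, had probes at 1.89 and 2.23 at 6 h and at 1.26 and 2.68 at 12 h. Its medians of 2.06 (probe SD 0.24) and 1.97 (probe SD 1.01) were 4.18-fold and 3.91-fold higher. Brd3, the related BET gene, stood at -0.61 (probe SD 0.45, 3 probes) and -0.54 (probe SD 0.58). Brd1, a scaffold of acetyltransferase complexes, stood at -1.53 (probe SD 1.30, 2 probes) and -1.40 (probe SD 0.18). The SWI/SNF subunits Brd7 and Brd9 stood at 0.071 and -0.32 at 6 h and at 0.20 and -0.028 at 12 h. Brd8, of the Tip60 complex, stood at -0.29 and -0.91 on 1 probe. The family medians were -0.30 and -0.29.

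Of 28 paralog pairs listed, 15 had both genes on both arrays, and 2 pairs were at least 1 log2 apart in the same sense at both times. Arid1a minus Arid1b was -1.62 at 6 h and -1.75 at 12 h. Brd2 minus Brd3 was 2.67 and 2.51. How many other gene pairs lie this far apart was not counted. Apart by at least 1 log2 at 6 h only were Setd1a minus Setd1b (1.73) and Smarca5 minus Smarca1 (1.62). At 12 h only, such pairs were Smarca4 minus Smarca2 (-1.69), Kdm4a minus Kdm4b (-1.51) and Hdac1 minus Hdac2 (1.40). Among the pairs that lay close at both times, the differences were 0.43 and 0.52 for Kat6a minus Kat6b, 0.31 and 0.43 for Kat2a minus Kat2b, and -0.24 and -0.057 for Chd3 minus Chd4. Paralogs can share hybridisation signal on spotted arrays, and how far this holds for these probes was not tested.

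Between the time points the members were on balance lower at 12 h. The median difference, 12 h minus 6 h, was -0.20 over 67 members and 0.12 over 10286 genes, and it was below 0 for 44 of 67 members (65.7%) and for 43.4% of all genes. At least 1 log2 lower at 12 h were 7 members (10.4%), namely Chd1, Hdac11, Kat7, Kdm3a, Kdm4a, Kdm5b and Kdm6a, against 7.35% of all genes. At least 1 log2 higher were 3 members (4.48%), Arid4a, Setd1b and Smarca1, against 11.5%. The 4 largest differences downward were -2.65 for Chd1, -1.74 for Kdm3a, -1.35 for Hdac11 and -1.30 for Kdm4a, and the 4 upward were 1.77 for Smarca1, 1.71 for Arid4a, 1.18 for Setd1b and 0.93 for Kmt5c. With both arrays scaled to the same deviation the counts were 4 lower and 5 higher, so the balance between the directions depended on the scale of the arrays.

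The arrays ranked the members alike. Across the 67 members the Pearson correlation of 6 h with 12 h was 0.683 and the Spearman correlation 0.689, and across all 10286 genes they were 0.663 and 0.737. Genes are not independent replicates, and both arrays share the print, the dye orientation and the probes. Below 0 on both arrays were 43 members (64.2%), against 44.9% of all genes, while 11 were above 0 on both and 13 on different sides. The shares of all genes above 0 on both arrays or on different sides were not counted.

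**Figure D4:**
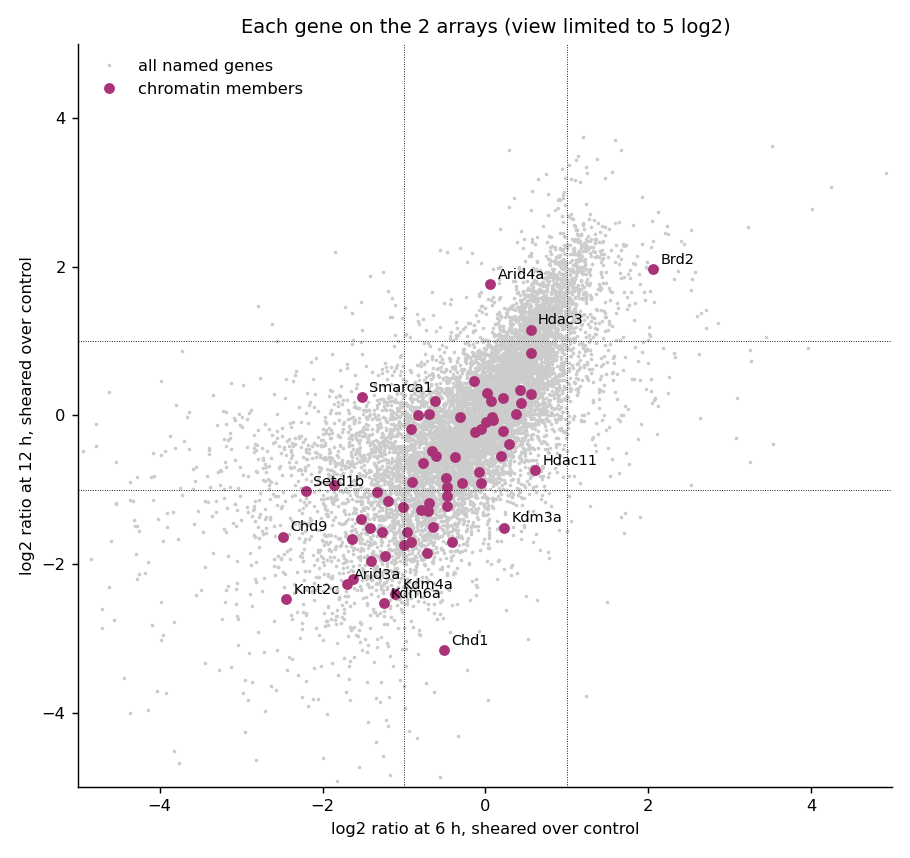
Each point is a gene, with its log2 ratio, likely of sheared over control, at 6 h on the horizontal and at 12 h on the vertical axis; grey points are all named genes within the view, dark points the chromatin members, and dotted lines mark 2-fold. Members gather in the lower left, where 16 are past 2-fold on both arrays, and Brd2 stands alone at the upper right.

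Other chromatin genes, taken from 10 lists of complexes related to these families, lay closer to 0. They numbered 194 on the platform. Their median was -0.22 at 6 h, where 36 of 192 (18.8%) lay at least 2-fold lower and 8 higher. Their median at 12 h was -0.36, where 50 of 193 (25.9%) lay lower and 15 higher. Of all genes 18.8% and 20.5% lay lower and 6.20% and 14.5% higher, so the lower share was near theirs at 6 h and above it at 12 h. No difference between these genes and the members was tested.

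The lists of acetyltransferase partners and remodellers are read here against all genes, of which 18.8% were lower and 6.20% higher at 6 h, and 20.5% and 14.5% at 12 h. Of 27 genes of other acetyltransferases and their complexes, 5 were lower at 6 h and 9 at 12 h, with none higher and medians of -0.12 and -0.59. The coactivator Crebbp stood at -1.79 (probe SD 0.27, 4 probes) and -1.76 (probe SD 1.91), Ncoa2 at -2.21 (SD 0.66 over 2 probes) and -2.69 (SD 0.51), and Epc2 at -1.25 (SD 0.31 over 2 probes) and -2.80 (SD 0.41). Of 27 genes of the INO80, SRCAP and ISWI remodellers, 9 and 8 were lower and 0 and 1 higher, with medians of -0.61 and -0.53. The ATPase Ino80 stood at -1.99 and -4.61 on 1 probe, Ino80d at -1.77 and -1.75 on 1 probe, and Rsf1 at -2.01 (probe SD 0.73, 3 probes) and -1.67 (probe SD 1.42). Of 11 SWI/SNF subunits without a Smarc or Arid symbol, 2 and 1 were lower and 1 and 3 higher, with medians of 0.025 and -0.042. Pbrm1, the large subunit of PBAF, stood at -1.45 (probe SD 0.28, 5 probes) and -2.16 (probe SD 1.35), against 1.17 and 1.82 for Bcl7c and 0.76 and 1.68 for Phf10, each on 1 probe.

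Of all genes, 18.8% at 6 h and 20.5% at 12 h were lower and 6.20% and 14.5% higher. Of 28 other methyltransferases and COMPASS subunits, 5 were lower at each time and 1 and 3 higher, with medians of -0.074 and -0.23. Their lower share was thus no higher than that of all genes. Ncoa6 stood at -1.95 and -2.76, the H3K9 enzyme Ehmt1 at -1.46 and -2.53, and Setdb2 at -1.54 and -2.30, each on 1 probe. Of 19 Polycomb genes, 2 were lower at each time, a share below that of all genes, and 0 and 1 higher, with medians of -0.12 and -0.23. The PRC2 cofactor Jarid2 stood at -3.58 (probe SD 1.73, 2 probes) and -1.47 (probe SD 0.14), Asxl1 at -2.72 (probe SD 1.43, 2 probes) and -2.19 (probe SD 0.59), and Asxl2 at 0.71 and 2.54 on 1 probe. Of 21 NuRD and corepressor subunits, 3 and 6 were lower and 2 and 5 higher, with medians of 0.045 and -0.22, the 6 h median turning negative without centring. Tbl1x and Tbl1xr1, which bind Hdac3 in the NCoR complex, stood at -1.21 (1 probe) and -1.41 (probe SD 1.21, 2 probes) at 6 h and at -3.06 and -2.40 at 12 h. The mitochondrial sirtuin Sirt4 stood at 1.11 and 3.44 on 1 probe.

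DNA methylation genes and other demethylases were few. Of all genes, 18.8% at 6 h and 20.5% at 12 h were lower and 6.20% and 14.5% higher. For DNA methylation and methyl-CpG readers, 3 of 10 were lower at each time and none higher, with medians of -0.65 and -0.36. The de novo methyltransferase Dnmt3a stood at -2.07 (probe SD 0.22, 2 probes) and -1.54 (probe SD 1.19), Tet3 at -1.52 (probe SD 1.67, 2 probes) and -1.59 (probe SD 0.40), and the maintenance enzyme Dnmt1 at -0.85 (probe SD 0.51, 3 probes) and -0.77 (probe SD 0.20). Of 6 other demethylases and JmjC proteins, 0 and 1 were lower and 1 and 0 higher. Phf8 stood at -0.69 (probe SD 0.19, 3 probes) and -1.497 (probe SD 1.33), Jmjd6 at 1.14 (probe SD 0.39, 3 probes) and 0.80 (probe SD 0.78) and Jmjd4 at -0.86 and -0.62 on 1 probe.

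Histone chaperones and architectural proteins were mixed. Of all genes, 18.8% at 6 h and 20.5% at 12 h were lower and 6.20% and 14.5% higher. The lower share of both lists lay below that of all genes at 6 h and above it at 12 h. Of 18 chaperones at 6 h and 19 at 12 h, 3 and 6 were lower and 1 was higher at each time, with medians of -0.26 and -0.37. Npm1, the nucleolar chaperone, stood at 1.27 and 1.08 on 1 probe, Nap1l5 at -2.91 and -1.30 on 1 probe, and Daxx, which deposits histone H3.3, at -0.42 (2 probes) and -1.95 (1 probe). Of 25 heterochromatin and architecture genes, 4 and 9 were lower and 2 and 1 higher, with medians of -0.42 and -0.66. The cohesin release factor Wapl stood at -0.89 (probe SD 0.31, 2 probes) and -2.85 (probe SD 0.89), the cohesin subunit Stag2 at -0.89 (probe SD 0.22, 2 probes) and -2.27 (probe SD 0.60), and the lamin B receptor Lbr at -1.67 (probe SD 1.26, 3 probes) and -1.33 (probe SD 1.70).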

How the data were processed

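Gene expression was measured on 2 arrays, 1 per time point. The authors deposited 1 log2 ratio per spot (42624 spots); the base of 2 is inferred, and their normalization, background correction and spot filter are not given in the sources used here. The median of each array was then subtracted, the platform's GEO annotation supplied gene symbols, and probes carrying a single symbol were summarised per gene by their median (Python 3.11.15, pandas 2.3.3). All 69 member symbols matched the RefSeq gene table of GRCm38.p6 by gene ID.

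With 1 array per group no test was run: counts past 2-fold are set beside those of all genes, and precision is limited by the number of arrays. Depth is unknown, since no intensities were used. Members and lists were chosen with earlier results of these data known. Named with values by rule were, per family, the highest, lowest and most-probed members, those past 2-fold on both arrays, those past 1.5-fold on opposite sides, the 4 largest differences each way, paralogs apart on both arrays, and the top 3 genes of each other list; other members complete the account of their family, and these, the printed promoters and the motifs were chosen after their values were seen. Alternatives were no centring, centring of the 48 print blocks (900 consecutive spot numbers), equal array deviations, the mean of probes, 2 or more probes, probes with several symbols, genes on both arrays, and thresholds of 1.5-fold and 3-fold. A planned description by protein length was not run. The counting was tested on simulated data.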

Additional observations from a re-analysis of the deposited data

Results flagged for a closer look

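Hdac11 was flagged because its values lay on opposite sides at the 2 time points, each at least 1.5-fold. They were 0.61 at 6 h (probe SD 0.073, 2 probes) and -0.74 at 12 h (probe SD 0.20, 2 probes). This held for 1.49% of members and 1.32% of all genes, a share near the background. With 1 array per time the difference was not tested. Without centring the values were 0.29 and -1.22, and with print blocks centred 0.52 and -0.81. The 6 h value came within 1.5-fold in each case.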

How the results depend on the processing

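No paired analysis was possible because each time point has 1 array and no result comes from a test. A value was taken as moved where it shifted by more than the pooled probe SD divided by the square root of the number of genes, and a count where it changed by more than 1.5 times. All members' and family medians kept their sign, except that of Hdac at 12 h, which turned from -0.38 to 0.043 over genes on both arrays. Without centring, which only shifts each array, the members' medians were -0.94 at 6 h and -1.38 at 12 h and the 12 h minus 6 h difference -0.35; 30 members were at least 2-fold lower at 6 h and 26 on both arrays. The family medians at 6 h were then -1.19 (Kdm), -1.64 (Kmt), -1.05 (Setd), 0.10 (Hdac), -0.45 (Smarc), -1.02 (Chd), -0.63 (Brd), -0.80 (Kat) and -1.55 (Arid), and at 12 h -1.99, -1.82, -1.31, -0.86, -0.70, -1.73, -0.76, -1.63 and -2.37 in the same order. With print blocks centred the Hdac median at 12 h was -0.017. With equal array deviations 5 members were at least 1 log2 higher and 4 lower at 12 h than at 6 h. With the mean of probes the Smarc median at 12 h was -0.64. With 2 or more probes the 6 h Kmt median was -1.63, the 12 h medians were -1.74 (Kmt), -0.042 (Hdac), -0.83 (Smarc) and -1.64 (Chd), and 1 member was at least 1 log2 higher at 12 h. With probes of several symbols kept, the members' 6 h median was -0.47, the Arid medians -0.58 and -1.05 and the 12 h Kdm median -1.20, and the members at least 2-fold higher numbered 2 at 6 h, 5 at 12 h and 2 on the arrays jointly. At 1.5-fold 2 members were higher and 34 lower at 6 h, and 27 lower on both arrays; at 3-fold the lower members numbered 7 (6 h), 15 (12 h) and 5 (both). Of 80 single values of the members named by rule, 17 within 2-fold changed sign under some alternative, and of 44 past 2-fold, 4 (Setd5 at 6 h, and Hdac3, Kdm4c and Setd1b at 12 h) came within 2-fold. The values of the other members were not included in these counts, and some near 0 can change sign as well.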

Other observations

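A further 5 genes with symbols of these families were carried only by probes that the annotation assigns to several genes, so they belong to no comparison above. Kdm6b, an H3K27 demethylase, stood at 0.48 at 6 h and 1.27 at 12 h on 1 probe shared with a RIKEN transcript. Kdm2a, on probes shared with another RIKEN transcript, stood at 0.053 (probe SD 0.58, 5 probes) and -1.20 (probe SD 2.07). Kat14, on probes shared with Pet117, stood at 0.86 (probe SD 1.35, 3 probes) and -1.03 (probe SD 2.49). Smarcd3, on probes shared with Chpf2, stood at 0.18 (probe SD 0.16, 2 probes) and -0.22 (probe SD 0.69). Arid5a stood at 1.41 (probe SD 0.19, 4 probes) and 2.20 (probe SD 0.18), and all of its probes are shared with Tpt1, an abundant transcript, so the signal cannot be assigned to Arid5a.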
